A study of Homo sapiens with 6 samples.

Results

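The genes of the eukaryotic translation initiation factors (EIF genes) were followed in RNA-Seq libraries of GM12873, an Epstein-Barr virus-transformed human B-lymphoblastoid cell line. Members were the gene symbols that begin with EIF and a digit, without the EIF2AK kinases and without symbols that end in P and digits. This gave 52 of the 23284 symbols in the deposited tables, each represented by its record with the highest mean FPKM (fragments scaled to transcript length and to the mapped reads of the sample). Symbols that begin with EIF and a digit numbered 60 in all, and those left out were 4 kinase genes, the pseudogene EIF3IP1 and the binding protein genes EIF4EBP1 to EIF4EBP3.

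The study asked whether RNA of cells dried by lyophilization keeps its expression profile. The 3 control samples were non-lyophilized cells taken straight into Trizol, and the 3 lyophilized samples were cells dried in 0.1 M trehalose and kept at room temperature for 2 weeks. Both groups were the same untreated line with no introduced allele, and the study paired each control with the lyophilized sample of the same number. A single cell line was used, and the labels do not say whether the pairs were separate cultures. The p-values below measure the spread between these samples or, with the pair as a block, the spread of differences within pairs. Either spread may be technical.

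Initiation factors bring the small ribosomal subunit, the initiator methionyl-tRNA and the capped mRNA together at a start codon. EIF2 carries the tRNA and is recharged with GTP by EIF2B, EIF3 and EIF1 hold the small subunit in its scanning form, and the EIF4 proteins bind the cap, unwind the leader and link it to the poly(A) tail through the scaffold EIF4G. EIF5 and EIF5B act when the start codon is found and the subunits join, and EIF6 keeps the large subunit from joining early. Lymphoblastoid cells divide continuously and depend on this machinery for growth.

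The members did not form 1 functional set. EIF2C1 to EIF2C4 are older symbols of the Argonaute genes AGO1 to AGO4, which act in small RNA silencing, and they are described apart from the factor genes. One member is Y-linked, and its values are not given. Of the 47 factor genes with values, 43 were tested because their mean exceeded 1 FPKM among controls, lyophilized samples or both. The other 4, EIF3CL, EIF4E1B, EIF4E3 and EIF5A2, stayed below that level. All 9 B cell markers examined were above 1 FPKM in every sample, and all markers of T, natural killer, myeloid, erythroid, epithelial and fibroblast cells were below it. In bulk RNA, fewer cells of a type and less RNA per cell cannot be told apart, and FPKM, being relative to the mapped reads of a sample, gives no total RNA amount.

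EIF1, EIF1B and EIF4G2 have unusual start sites, which are shown beside those of EIF5, EIF5B and the other scaffold genes as a description. The start sites were not used in the tests below. The sequences are from GRCh37 at the start of the annotated canonical transcript, 5′ to 3′, with 9 bases before the start codon and the codon itself in capitals.
EIF1: tcgtatcgtATGtcc
EIF1B: tagtatcgcATGtcc
EIF5: taagccaaaATGtct
EIF4G2: gccgccaaaGTGgag
EIF4G1: ccaaatgaaATGaac
EIF4G3: cctcagacaATGaat
EIF3A: gccgccaagATGccg
EIF5B: tgacaagcaATGggg
EIF1 and EIF1B, which encode the near-identical factors that reject poor start codons, had a C at position -3 and a T at position +4, counted with the A of the start codon as position 1. This pair of bases occurred at 2 of the 47 factor genes (EIF1 and EIF1B) and at 0.946% of 18918 coding genes. A purine at position -3 was present in 87.2% of the factor genes and in 86.1% of the coding genes. EIF4G2 was annotated with a GTG start codon, found in 2 of the coding genes in all, and 41 coding genes had any start codon other than ATG. The windows lie at chr17:39845282-39845296 (EIF1), chr3:40351424-40351438 (EIF1B), chr14:103802189-103802203 (EIF5), chr11:10828837-10828851 (EIF4G2, minus strand), chr3:184033576-184033590 (EIF4G1), chr1:21329230-21329244 (EIF4G3, minus strand), chr10:120840183-120840197 (EIF3A, minus strand) and chr2:99954009-99954023 (EIF5B).

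The initiation factor genes were expressed over a wide range of levels. EIF5A, which encodes the hypusine-containing factor that also acts in elongation, was highest with a mean of 347.8 FPKM over the 6 samples, and EIF1AD was lowest of the genes tested with 9.12 FPKM. The summed FPKM of the 47 factor genes amounted to 4807, 4729 and 4404 FPKM for the controls in order of their number, and to 5248, 5048 and 4817 FPKM for the lyophilized samples. Each lyophilized sum was above every control sum, though lyophilized sample 3 exceeded control 1 by little. Within pairs the ratio of lyophilized to control was 1.09, 1.07 and 1.09. As a share of the FPKM summed over the records kept for the 23284 symbols, the factor genes made up 0.958%, 1.02% and 0.954% in controls and 1.01%, 1.02% and 0.998% in lyophilized samples, so the groups overlapped on this scale.

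**Figure D1:**
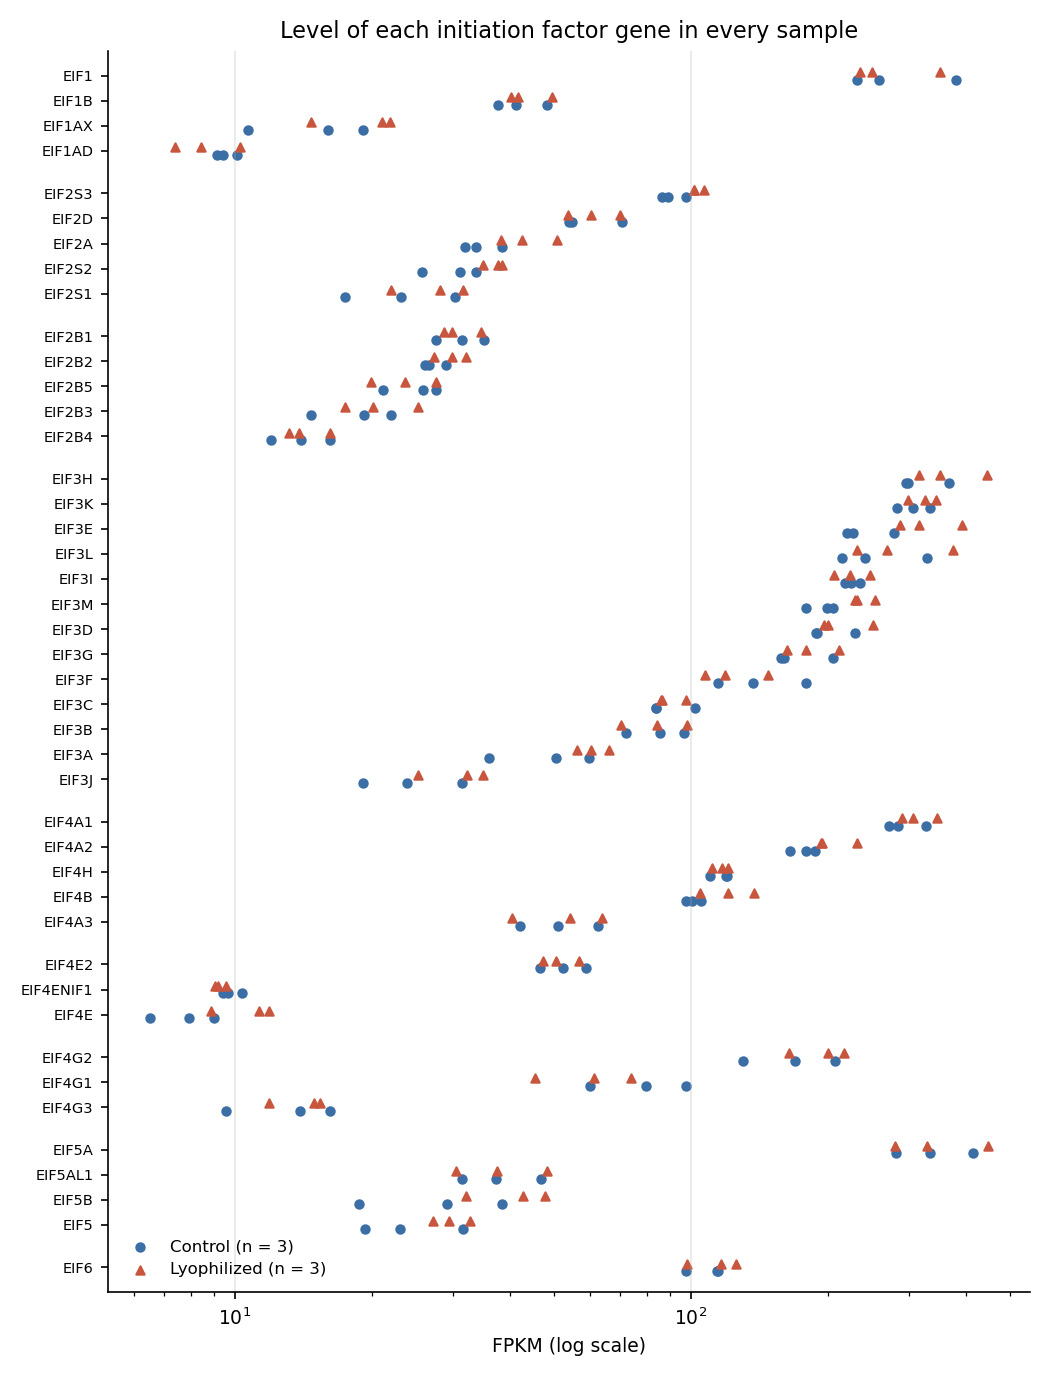
FPKM (log scale) of the 43 tested initiation factor genes, by factor, with 1 point for each of 3 control (circles) and 3 lyophilized (triangles) samples. Mean levels run from 9.12 FPKM for EIF1AD to 347.8 FPKM for EIF5A, and for most genes the points of both groups overlap.

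No initiation factor gene passed the test between lyophilized and control samples when the pairing was left out, as in the test the study used. limma on log2(FPKM + 0.1), adjusted over 11134 genes, called 0 of 43 factor genes lower and 0 higher at an adjusted p of 0.05, against 0.557% and 0.018% of all genes. At an unadjusted p under 0.05 there were 5 factor genes and 1573 genes in all, and the lowest adjusted p of a factor gene was 0.261 (EIF3E, limma). The median log2 fold change was 0.09 for the factor genes and 0.04 for all genes, and 32 of 43 factor genes had a value above 0. For 36 of 43, the highest control exceeded the lowest by a larger factor than the groups differed.

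With the pair as a block, 17 factor genes passed as higher in lyophilized samples and 2 as lower (EIF4G1 and EIF3F), against 15.9% and 14.9% of all genes. The labels give the pairing, and deviations of same-numbered samples from their group means correlated at r = 0.716, 0.603 and 0.476 over 11134 genes. The lyophilized sample was higher in all 3 pairs for 24 factor genes and lower in all 3 for 3 (EIF4G1, EIF3F and EIF4ENIF1), against 33.4% and 28.8% of all genes. All lyophilized values lay above all controls for 5 factor genes (EIF2S2, EIF2S3, EIF3E, EIF3M and EIF4A2), against 9.66% of all genes, and below them for 0, against 12.6%. The counts depended on which pair was left out, as did those over all genes. Without pair 1 the block called 9 factor genes higher and 1 lower, against 1004 and 1201 of 11119 genes. Without pair 2 it called 18 and 3, against 3103 and 2252 of 11185 genes. Without pair 3 it called 7 and 1, against 474 and 783 of 11130 genes. Of the 19 genes called over all pairs, 6 were called in every fit that left out 1 pair, namely EIF4G1, EIF3M, EIF2S2, EIF2A, EIF3E and EIF5B.

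**Figure D2:**
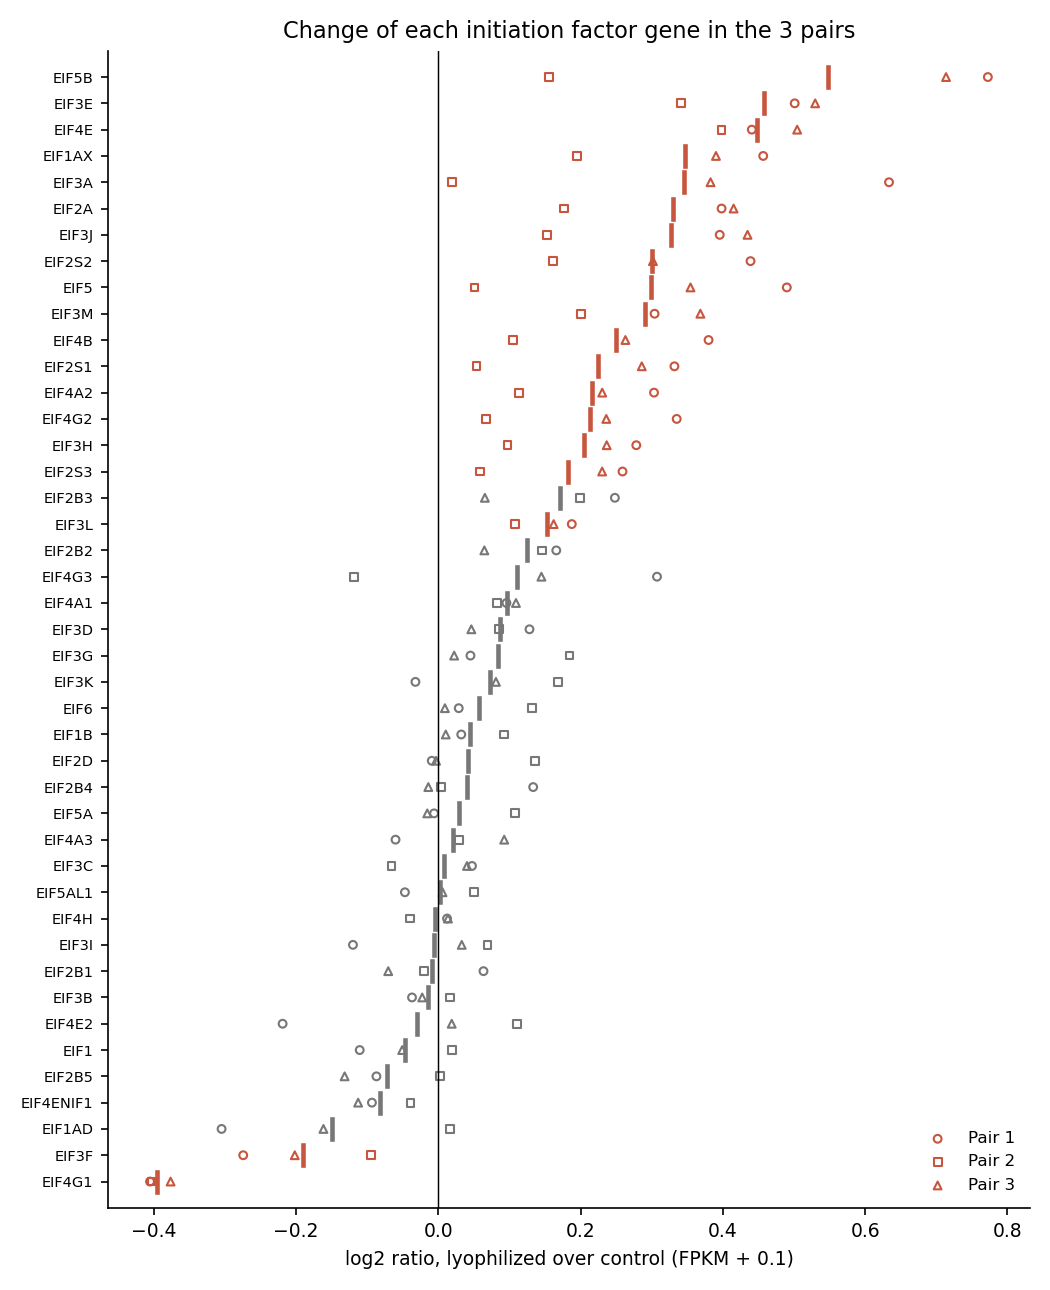
log2 ratio of lyophilized over control FPKM for each of the 43 tested factor genes, with 1 open symbol for each of the 3 pairs and a bar at the mean. Red marks the 19 genes with an adjusted p under 0.05 in limma with the pair as a block: EIF4G1 and EIF3F lie below 0 and the other 17 above 0, with pair 2 often nearest to 0.

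EIF1 and EIF1A bind the small subunit during scanning. EIF1 had 380.3, 231.7 and 258.7 FPKM in controls and 352.2, 234.7 and 249.7 in lyophilized samples. Its paralog EIF1B had 48.4, 37.7 and 41.4 FPKM in controls and 49.5, 40.2 and 41.7 in lyophilized samples. Control 1 and lyophilized sample 1 were the highest in both genes, and the ratio of EIF1 to EIF1B ran from 5.84 to 7.86 over the 6 samples. EIF1AX, the X-linked gene of EIF1A, had 10.68, 19.05 and 15.97 FPKM in controls and 14.7, 21.8 and 21.0 in lyophilized samples. It was higher in 3 of 3 pairs, with a log2 fold change of 0.35, SE 0.08 and an adjusted p of 0.0095 in limma with the block, although the groups overlapped and the call was lost without pair 3 (adjusted p = 0.0764, limma). EIF1AD, a nuclear EIF1A-domain protein gene, had 9.14, 10.1 and 9.42 FPKM in controls and 7.38, 10.2 and 8.42 in lyophilized samples, and it did not pass the test with the block (adjusted p = 0.217, limma).

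Of the 5 genes grouped as EIF2 by symbol, 4 (EIF2A, EIF2S1, EIF2S2 and EIF2S3) passed as higher with the block, against 15.9% of all genes. EIF2D, a tRNA-delivering factor, did not. This grouping is not limited to subunits of the EIF2 complex. After the GC corrections described below, 0 of the 5 passed with coding GC and 1 (EIF2S2) with transcript GC. EIF2S3, which encodes the GTP-binding gamma subunit, had 89.2, 97.5 and 86.4 FPKM in controls and 106.8, 101.5 and 101.4 in lyophilized samples. The groups did not overlap, and its log2 fold change was 0.18, with SE 0.05 and an adjusted p of 0.0318 in limma with the block, which rose to 0.168 without pair 1 and 0.231 without pair 3. The summed FPKM of the 5 genes grouped as EIF2 was 239.4 ± 11.9 (SD, n = 3) in controls and 272.7 ± 10.5 (SD, n = 3) in lyophilized samples. Values of EIF2S2 and, to a smaller degree, EIF2S3 are less certain, since 19.3% and 12.4% of the 75-base stretches of their transcripts occur at other loci. None of the 5 genes of EIF2B, the exchange factor that recharges EIF2, passed with the block. EIF2B1, its alpha subunit gene, had 27.5, 35.2 and 31.4 FPKM in controls and 28.8, 34.7 and 29.9 in lyophilized samples, a difference within the spread of the controls.

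EIF3, the large complex on the small subunit, took 2318 ± 212 FPKM (SD, n = 3) in controls and 2571 ± 239 (SD, n = 3) in lyophilized samples, summed over its 14 listed genes. With the block, 6 of the 13 tested passed as higher (EIF3A, EIF3E, EIF3H, EIF3J, EIF3L and EIF3M) and EIF3F as lower. The shares over all genes were 15.9% and 14.9%. With the coding GC correction described below, 2 passed as higher and 0 as lower, against 9.35% and 7.23% of all genes. With transcript GC, 5 passed as higher and 1 as lower, against 9.2% and 6.63%. EIF3E, a PCI-domain subunit, had 277.9, 226.2 and 219.3 FPKM in controls and 393.3, 286.5 and 316.7 in lyophilized samples. Every lyophilized value was above every control, and the log2 fold change was 0.46, with SE 0.05 and an adjusted p of 0.000479 in limma with the block. EIF3H, an MPN-domain subunit and the most abundant EIF3 gene, had 367.1, 295.9 and 298.6 FPKM in controls and 445.3, 316.5 and 351.8 in lyophilized samples. It was higher in 3 of 3 pairs with overlapping groups (adjusted p = 0.012, limma with the block), and its call was lost without pair 3 (adjusted p = 0.0882, limma).

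EIF3F, the other MPN-domain subunit, had 178.2, 114.5 and 136.4 FPKM in controls and 147.3, 107.2 and 118.6 in lyophilized samples. The groups overlapped, and the value fell in each pair, with a log2 fold change of -0.19, SE 0.05 and an adjusted p of 0.0206 in limma with the block. This call was lost without pair 1 (adjusted p = 0.141, limma) or pair 3 (adjusted p = 0.136, limma). EIF3C values are uncertain because 97.9% of the 75-base stretches of its transcript also occur in EIF3CL. The table lists EIF3C at 2 loci of chromosome 16 with 83.6, 102.0 and 83.7 FPKM in controls and 86.4, 97.5 and 86.1 in lyophilized samples at the higher, and 79.9 to 96.0 FPKM at the other. EIF3CL itself was listed at close to 0 in most samples, and its reads cannot be told apart from those of EIF3C.

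The EIF4A helicases and their partners EIF4B and EIF4H summed to 740.3 ± 39.7 FPKM (SD, n = 3) in controls and 809.8 ± 15.6 (SD, n = 3) in lyophilized samples. EIF4A1 had 271.1, 327.4 and 283.7 FPKM in controls and 289.7, 346.8 and 306.0 in lyophilized samples, higher in 3 of 3 pairs but not past the test with the block (adjusted p = 0.0942, limma). Its annotated transcript is contained in a read-through gene at the same locus. EIF4A2, the paralogous helicase, had 187.2, 179.0 and 164.7 FPKM in controls and 231.1, 193.6 and 193.2 in lyophilized samples. The groups did not overlap, and EIF4A2 passed as higher with the block (log2 fold change 0.22, SE 0.05, adjusted p = 0.0117, limma). That call was lost without pair 1 (adjusted p = 0.0595, limma) or pair 3 (adjusted p = 0.0693, limma). The ratio of EIF4A1 to EIF4A2 was 1.448, 1.829 and 1.723 in controls and 1.254, 1.791 and 1.584 in lyophilized samples, lower in each pair with overlapping groups. EIF4B was the other helicase partner that passed as higher, with an adjusted p of 0.0127 in limma with the block.

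EIF4E, the cap-binding protein, is held back by the EIF4E-binding proteins. Its gene had 6.51, 8.97 and 7.93 FPKM in controls and 8.87, 11.9 and 11.3 in lyophilized samples, which put it among the least abundant factor genes. It was higher in 3 of 3 pairs and the groups overlapped only between control 2 and lyophilized sample 1. The log2 fold change was 0.45, with SE 0.08 and an adjusted p of 0.00435 in limma with the block, or 0.0533 without pair 3. Of the 75-base stretches of its transcript, 19.0% occur at other loci. EIF4E2, a cap-binding homolog, had 58.8, 52.5 and 46.7 FPKM in controls and 50.5, 56.7 and 47.4 in lyophilized samples, with no common direction over the pairs. EIF4ENIF1, the transporter that takes EIF4E to the nucleus, had 9.63, 9.41 and 10.4 FPKM in controls and 9.02, 9.15 and 9.57 in lyophilized samples. It was lower in each pair but did not pass with the block (adjusted p = 0.436, limma). The inhibitor EIF4EBP1, outside the member rule, had 48.9, 58.9 and 50.9 FPKM in controls and 46.3, 61.5 and 49.9 in lyophilized samples. The ratio of EIF4EBP1 to EIF4E was 7.52, 6.57 and 6.41 in controls and 5.22, 5.19 and 4.42 in lyophilized samples, with no overlap. That ratio was not tested, and without a GC correction the log2 fold changes were -0.015 for EIF4EBP1 and 0.45 for EIF4E. With the block and the coding GC correction described below they were 0.263 (adjusted p = 0.006, limma) and 0.218 (adjusted p = 0.0533, limma). With transcript GC the adjusted p of EIF4E was 0.187 (limma with the block).

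The scaffold genes did not move together. EIF4G1, EIF4G2 and EIF4G3 encode the EIF4G family and EIF3A the largest subunit of EIF3. Their canonical coding sequences run from 2721 bases (EIF4G2) to 4923 bases (EIF4G3). EIF4G1 (chr3:184032283-184053146), the main scaffold, which joins EIF4E, EIF4A and poly(A)-binding protein, had 60.2, 97.6 and 79.6 FPKM in controls and 45.4, 73.7 and 61.3 in lyophilized samples. Every lyophilized sample was below its paired control by nearly the same factor, while the groups overlapped. The log2 fold change was -0.40, with SE 0.23 and an adjusted p of 0.459 in limma without the block and SE 0.05 and an adjusted p of 0.001 with it. EIF4G1 had the most negative fold change of the 43 factor genes and passed in all 3 fits that left out a pair.

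EIF4G2 (chr11:10818593-10830582), which lacks the EIF4E-binding region and starts at the GTG codon shown above, had 129.7, 207.0 and 169.1 FPKM in controls and 163.6, 216.7 and 199.2 in lyophilized samples. It was higher in 3 of 3 pairs (log2 fold change 0.21, SE 0.06, adjusted p = 0.0199, limma with the block), and the call was lost without pair 1 or pair 3. EIF4G3 (chr1:21132785-21503381), the EIF4G1 paralog, had 9.57, 16.2 and 13.9 FPKM in controls and 11.9, 14.9 and 15.3 in lyophilized samples. It was higher in 2 of 3 pairs and did not pass (adjusted p = 0.36, limma with the block). EIF3A (chr10:120794541-120840334) had 36.1, 59.6 and 50.6 FPKM in controls and 56.1, 60.4 and 66.1 in lyophilized samples. Its groups overlapped and it was higher in each pair, by a log2 ratio of 0.63 in pair 1 and 0.02 in pair 2 (adjusted p = 0.0251, limma with the block). The EIF3A call was lost without pair 1 (adjusted p = 0.064, limma).

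Ratios between these genes were then taken within each sample. EIF4G1 over EIF4G2 was 0.464, 0.471 and 0.471 in controls and 0.278, 0.340 and 0.308 in lyophilized samples. The controls had an SD of 0.0042, and every lyophilized value lay below them, with a geometric mean 0.656 times that of the controls. EIF4G1 over EIF3A was 1.67, 1.64 and 1.57 in controls and 0.809, 1.22 and 0.929 in lyophilized samples. The geometric mean of the lyophilized samples was 0.598 times that of the controls. For EIF4G1 over EIF4G3, the geometric mean of the lyophilized samples was 0.703 times that of the controls. Of 6 ratios among the 4 genes, the 3 with EIF4G1 and EIF4G3 over EIF3A did not overlap between groups. For these 4 the two-sided exact permutation p was 0.1, the smallest that 3 against 3 allows, and 0.15 after adjustment over the 6 ratios. That test did not use the pairs. An exact sign-flip test over the 3 pairs gave p = 0.25 for these 4, the smallest that 3 pairs allow. EIF4G2 over EIF4G3 and EIF4G2 over EIF3A overlapped between groups, with exact permutation p values of 0.2 and 0.3. Their exact sign-flip p values were 0.25 and 0.5.

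**Figure D3:**
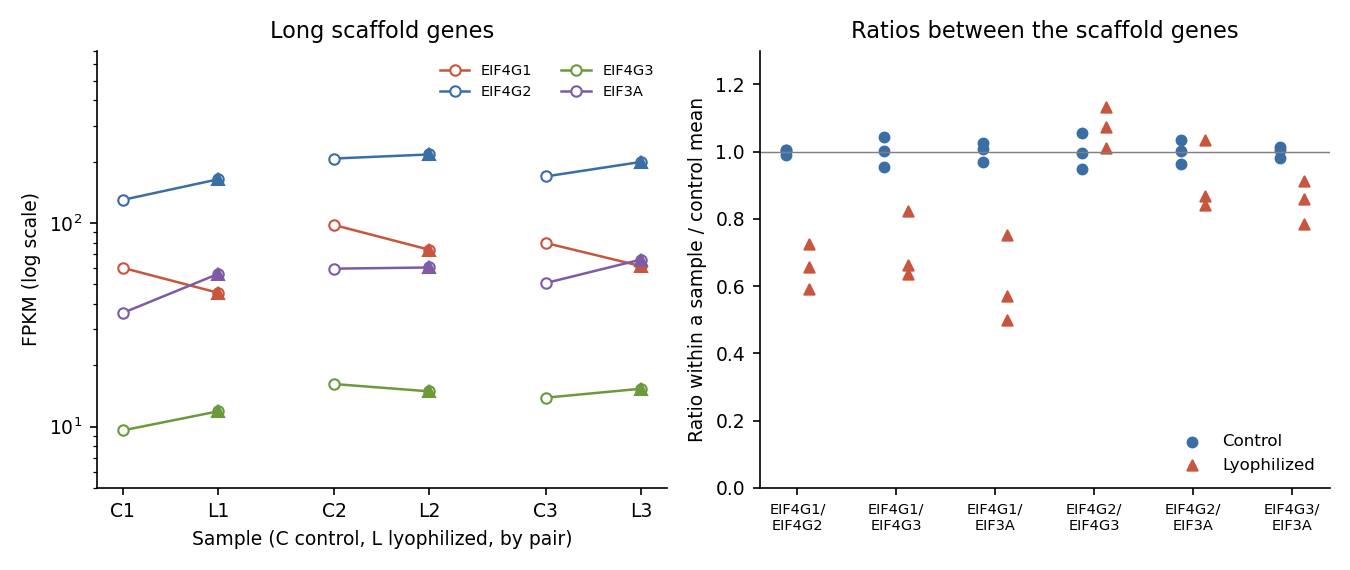
Left, FPKM (log scale) of the 4 scaffold genes in control (open circles) and lyophilized (triangles) samples, joined by pair. Right, the 6 within-sample ratios among these genes divided by their control mean: the 3 ratios with EIF4G1 as numerator lie below every control in all lyophilized samples.

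The long scaffold genes and the short factor genes overlapped in their fold changes. The mean log2 fold change was 0.07 for the 4 long scaffold genes and 0.13 for the 28 factor genes with coding sequences under 1500 bases. The difference was -0.06, and in pairs 1 to 3 it was 0.08, -0.22 and -0.04, with an SD of 0.15. The other factor genes tested were in neither group. Among them were EIF5B (3660 coding bases, log2 fold change 0.55) and EIF4ENIF1 (2955 coding bases, -0.08), both longer in coding sequence than EIF4G2. Against all 39 other factor genes, the difference was also -0.06. The 4 long scaffold genes ran from -0.40 to 0.35 and so covered most of the range of the short genes, which was -0.19 to 0.46. With the block, 11 of the 28 short genes passed as higher and 1 as lower, against 15.9% and 14.9% of all genes. Lengths in this comparison were those of the longest annotated coding transcript, whose coding sequence can be shorter than the canonical one. For EIF3E it had 516 bases, against 1335 in the canonical transcript. Over the 43 factor genes, Spearman's rho of the fold change with coding length was 0.05, and in the pairs 0.148, -0.32 and 0.065. With transcript length it was 0.23, and in the pairs 0.305, -0.208 and 0.307. Both changed sign in pair 2, and the genes share libraries and are not independent replicates.

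EIF5, the GTPase-activating protein of EIF2, and EIF5B, the GTPase of subunit joining, passed as higher with the block, while EIF5A and EIF5AL1 did not. EIF5B had 18.7, 38.5 and 29.1 FPKM in controls and 32.1, 42.8 and 47.9 in lyophilized samples. It had the most positive fold change of all factor genes, 0.55 on the log2 scale, with SE 0.11 and an adjusted p of 0.00599 in limma with the block. Its control values spanned a factor of 2.05, the widest of the 43 factor genes tested, and overlapped with the lyophilized values. EIF5A had 280.9, 415.3 and 333.4 FPKM in controls and 279.7, 447.5 and 329.8 in lyophilized samples, with no common direction over the pairs. Its log2 fold change was 0.03 without a GC correction and 0.21 with the block and transcript GC (adjusted p = 0.00815, limma). Of the 75-base stretches of the EIF5A transcript, 21.8% also occur in EIF5AL1, and the ratio of EIF5A to EIF5AL1 stayed between 8.78 and 9.25 in all samples. The values of EIF5AL1 are therefore uncertain, and those of EIF5A are less certain. EIF5A2, the paralog, was listed between 0.233 and 0.359 FPKM and was not tested. EIF6 had 114.0, 114.7 and 97.5 FPKM in controls and 116.3, 125.7 and 98.1 in lyophilized samples and did not pass with the block (adjusted p = 0.387, limma).

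The Argonaute genes were expressed at low levels. Their summed FPKM was 19.2, 14.1 and 17.2 in controls and 18.0, 13.9 and 16.2 in lyophilized samples, and the groups overlapped. EIF2C2 (AGO2), the slicing Argonaute and the most abundant of them, had 8.83, 5.06 and 7.15 FPKM in controls and 7.55, 5.46 and 6.59 in lyophilized samples. None of the 4 passed in the fits with or without the block, where the lowest adjusted p was 0.562 and 0.841 (limma).

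The fold changes of the factor genes went with the GC content of their coding sequences, as did those of all genes. Spearman's rho between fold change and coding GC was -0.752 over the 43 factor genes and -0.752 over 10340 genes, given as a description since genes share libraries. In the pairs it was -0.741, -0.462 and -0.765 for the factor genes. Of the 14 factor genes with coding GC below 45%, 13 passed as higher with the block, against 43.4% of all genes in that class. Of the 24 with 45 to 55%, 4 passed as higher, against 13.0% of all genes in that class. The 5 with 55% or more were EIF3B, EIF3F, EIF3G, EIF4G1 and EIF6, of which EIF3F and EIF4G1 passed as lower, against 33.6% of all genes in that class.

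When a curve over GC content was subtracted in each sample, EIF4G1 was still called lower and most of the genes called higher were not. With the block and coding GC, 5 factor genes passed as higher (EIF3E, EIF3G, EIF4B, EIF5B and EIF6) and 2 as lower (EIF4G1 and EIF1), against 9.35% and 7.23% of all genes. With the block and transcript GC, 10 passed as higher (EIF2S2, EIF3B, EIF3D, EIF3G, EIF3K, EIF3L, EIF4B, EIF5A, EIF5B and EIF6) and 2 as lower (EIF4G1 and EIF3F), against 9.2% and 6.63% of all genes. Only EIF4G1, EIF4B and EIF5B of the 19 genes called with the block were called in both of these fits in addition. EIF4G1 had a log2 fold change of -0.28 and an adjusted p of 0.00659 in limma with coding GC, and -0.21 and 0.0252 with transcript GC. EIF4B values are less certain, since 24.5% of the 75-base stretches of its transcript occur at other loci.

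**Figure D4:**
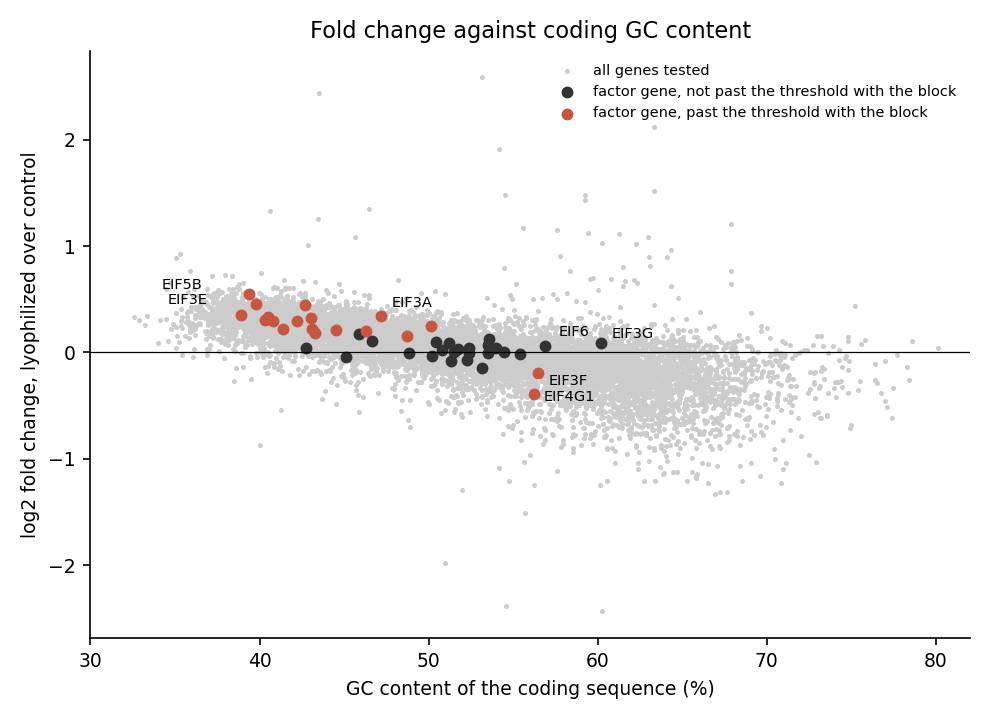
log2 fold change of lyophilized over control samples against GC content of the coding sequence in percent, for all genes tested (grey) and the 43 factor genes (black, or red where the adjusted p was under 0.05 in limma with the block). The 13 red points left of 45% all lie above 0, and the red points of EIF4G1 and EIF3F lie right of 55% and below 0.

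Other genes of translation were taken as a list of 45 kinases, regulators, scanning and recycling factors, poly(A)-binding proteins and elongation and release factors, of which 43 were tested. Without the block, 0 were lower and 0 higher, with 3 at an unadjusted p under 0.05 and a lowest adjusted p of 0.208 (limma). With the block, 6 were lower and 11 higher, against 14.9% and 15.9% of all genes. With the transcript GC correction in addition, 3 were lower and 7 higher, against 6.63% and 9.2% of all genes. RPTOR, the scaffold of the mTOR complex that phosphorylates the EIF4E-binding proteins, had 5.45, 5.49 and 6.26 FPKM in controls and 4.25, 4.34 and 4.36 in lyophilized samples, without overlap. Its log2 fold change was -0.40 (adjusted p = 0.016, limma with the block). EEF2K, the kinase that inhibits elongation factor EEF2, had a log2 fold change of -0.32 (adjusted p = 0.0153, limma with the block). The scanning helicases DDX3X and DHX29 had log2 fold changes of 0.37 and 0.37 (adjusted p = 0.0155 and 0.0456, limma with the block). HBS1L, a ribosome rescue factor, had 0.33 (adjusted p = 0.0302), and ABCE1, the recycling ATPase, had 0.32 (adjusted p = 0.0126, limma with the block). Of these 6 genes, EEF2K alone was also called with transcript GC subtracted (adjusted p = 0.0235, limma). None of the 4 EIF2 kinases passed, with adjusted p values from 0.139 to 0.578 in limma with the block.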

How the data were processed

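Poly(A)-selected RNA of 3 control and 3 lyophilized samples was sequenced as single-end 75-base reads. The authors mapped reads to hg19 (GRCh37) with TopHat 2.0.7 and deposited FPKM values from Cufflinks, 1 per record and sample, with no filter on low values. The Cufflinks version and its annotation are not given in the sources used here. The tables hold no counts, so the reads behind each value are not known from them and no interval or floor was computed. The paper reports more raw reads for the lyophilized sample in pairs 1 and 2, most unequally in pair 1, and fewer in pair 3. Whether sequencing depth affected the fold changes was not tested. Summed FPKM ran from 468790 to 524744 per sample.

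Groups came from the labels, and pairs were the same-numbered samples, as in the study. Of 24934 records, 1 per symbol was kept. Genes with mean FPKM above 1 in a group, without small RNAs, were tested with limma 3.58.1 (trend, R 4.3.3) on log2(FPKM + 0.1), with Benjamini-Hochberg adjustment and a threshold of 0.05. Fold changes are on this log2(FPKM + 0.1) scale. Further fits had the pair as a replicate block, alone or after subtracting a loess curve (span 0.3, degree 2) over transcript GC (10866 genes) or coding GC (10340 genes) in each sample. Ratios were compared by exact permutation. Sequence, length and GC came from GRCh37 with GENCODE 44 lifted to that build. Scripts were tested on simulated data.

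The members and lists were chosen with earlier results of these data known. Values per sample are given for the scaffold genes, the most abundant gene of each factor, the 4 most negative and 4 most positive fold changes, and paralogs. From the list of other translation genes, the 6 with the largest change among those past the threshold in either fit are named, and METAP2 stood level with ABCE1. Genes called with the block, and the binding proteins, were named beside their counts. The paired check gave correlations of 0.716, 0.603 and 0.476 for same-numbered samples.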

Additional observations from a re-analysis of the deposited data

How the results depend on the processing

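No factor gene passed in any of the fits without the block that changed the pseudocount, filter, scaling, variance trend or record choice, or that left out 1 sample. The block gave 2 lower and 17 higher, with transcript GC 2 and 10, and with coding GC, chosen after seeing the data, 2 and 5. Leaving out 1 sample or pair gave 0 to 3 lower and 0 to 18 higher, the highest without pair 2. Among these fits, that one also called the most of all genes, 2252 lower and 3103 higher of 11185. The other translation genes had 6 lower and 11 higher with the block, 3 and 7 with transcript GC, 2 and 5 with coding GC, and 0 to 8 lower and 0 to 17 higher when a sample or pair was left out. The median log2 fold change of the factor genes was 0.035 with coding GC and ran from 0.0432 (without control 3) to 0.151 (without control 2 or lyophilized sample 3). The log2 ratio of summed factor FPKM was 0.117 as reported, 0.0967 with median-of-ratios scaling, and 0.0795 to 0.148 with a sample left out. The long minus short difference ran from -0.225 (without control 1) to 0.0531 (without control 2). The Spearman correlation of fold change with transcript GC over the factor genes was -0.698 without a correction, 0.35 with the transcript GC correction and -0.003 with coding GC.

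Several named log2 fold changes changed sign, among them EIF2S3, EIF3H and EIF4A2, which were called higher with the block. With transcript GC these were EIF1B (-0.106), EIF2S3 (-0.0158), EIF3H (-0.0156), EIF4ENIF1 (0.0154) and EIF4G3 (-0.041). With coding GC they were EIF1B (-0.183), EIF2C2 (0.0468), EIF2S3 (-0.0324), EIF4A2 (-0.00464) and EIF4G3 (-0.0168). With median-of-ratios scaling, EIF3C was at -0.012. Leaving out a sample or pair moved EIF1 from -0.228 to 0.164, EIF1B from -0.0457 to 0.142, EIF2B1 from -0.0995 to 0.0771 and EIF2C2 from -0.291 to 0.105. It moved EIF3C from -0.0515 to 0.103, EIF4E2 from -0.113 to 0.0649, EIF4G3 from -0.102 to 0.273, EIF5A from -0.158 to 0.181 and EIF6 from -0.0217 to 0.157. The cause of these changes was not tested, and the block changed no call other than those given. With 3 samples a group, FPKM without counts and a single cell line, small differences were not resolved.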

Other observations

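Some genes outside the member rule had these values. The haem-regulated kinase gene EIF2AK1 had 30.4, 30.1 and 32.8 FPKM in controls and 32.8, 29.8 and 33.7 in lyophilized samples. EIF2AK3, the kinase of the unfolded protein response, had 11.0, 11.7 and 11.3 FPKM in controls and 15.3, 10.8 and 13.7 in lyophilized samples, so that only lyophilized sample 2 lay below the controls. EIF4EBP2 had 16.3, 19.6 and 20.8 FPKM in controls and 16.3, 19.1 and 21.3 in lyophilized samples, which overlapped completely. With coding GC subtracted, EIF4EBP1 had a log2 fold change of 0.26 and an adjusted p of 0.006 in limma with the block, while without that correction the adjusted p was 0.848.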
